A study of Homo sapiens with 6 samples.

Results

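The UGT1A family is a group of UDP-glucuronosyltransferases read from a single locus on chromosome 2. Its 9 members in the count table, UGT1A1, UGT1A3, UGT1A4, UGT1A5, UGT1A6, UGT1A7, UGT1A8, UGT1A9 and UGT1A10, were taken by symbol from 27980 symbols, and all 9 were found. They were picked with their counts in both groups already known. The contrast between the groups is therefore described for the members and is given no p-value. RNA-seq counts from 6 libraries of RKO cells, a poorly differentiated colon carcinoma line, were used. In 3 libraries the cells carried a lentiviral hairpin against TRIP6 (shTRIP6, genotype TRIP6 knockdown), and in 3 they carried a scrambled lentiviral hairpin (shControl, genotype given as WT). All cells, controls included, had been infected, placed in 5 µg/ml puromycin 36 h later and selected for 2 to 3 weeks, and total RNA was extracted with a mirVana kit. The labels call the replicates biological but do not say that they came from separate cultures or infections, so p-values measure the spread between these libraries only.

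UDP-glucuronosyltransferases are enzymes of the endoplasmic reticulum that join glucuronic acid, supplied as UDP-glucuronic acid, to small lipophilic molecules such as bilirubin, steroids, drugs and dietary phenols, so that the products can be carried out of the cell. Each UGT1A member has its own promoter and its own first exon, which encodes the part of the enzyme that binds the substrate. That exon is spliced to 4 common exons, which encode the part that binds UDP-glucuronic acid and the membrane anchor. In the body UGT1A1, UGT1A3, UGT1A4, UGT1A6 and UGT1A9 are known from the liver, and UGT1A7, UGT1A8 and UGT1A10 from the digestive tract.

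In GENCODE 29 (GRCh38) the 9 first exons lie on the plus strand of chromosome 2 over 143.5 kb, in the order UGT1A8, UGT1A10, UGT1A9, UGT1A7, UGT1A6, UGT1A5, UGT1A4, UGT1A3 and UGT1A1. The common exon 2 is at chr2:233767034-233767165, exon 3 at chr2:233767849-233767936, exon 4 at chr2:233768220-233768439 and exon 5, which ends in the shared 3′ untranslated region, at chr2:233772262-233773299. Together they hold 1478 bases. The first exon of UGT1A7, at chr2:233681938-233682792, holds 855 bases, all coding, and the intron from it to exon 2 spans 84.2 kb. For the other members that intron ran from 5.9 kb for UGT1A1 to 148.5 kb for UGT1A8. The join of a first exon to exon 2 shows why rows of this family overlap. In the sequences below, lower case is the last 30 bases of the first exon and capitals are the first 20 bases of exon 2, which are the same in every member.
UGT1A8: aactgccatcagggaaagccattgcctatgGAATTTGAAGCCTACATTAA
UGT1A7: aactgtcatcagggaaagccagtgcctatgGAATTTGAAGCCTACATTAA
UGT1A6: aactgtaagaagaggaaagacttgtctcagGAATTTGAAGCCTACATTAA
UGT1A5: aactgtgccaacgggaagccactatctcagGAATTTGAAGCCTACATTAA
UGT1A4: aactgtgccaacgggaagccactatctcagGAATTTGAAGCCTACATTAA
UGT1A1: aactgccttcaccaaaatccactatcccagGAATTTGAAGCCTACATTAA

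A read that lies wholly in exons 2 to 5 therefore cannot be given to 1 member, and only reads that touch a first exon separate them. The first exons fall into sequence groups. The coding first exon of UGT1A7 was 93.3% identical to that of UGT1A8, 92.6% to UGT1A10 and 92.3% to UGT1A9, and between 54.6% and 55.6% identical to those of the other 5 members. UGT1A3, UGT1A4 and UGT1A5 formed a like group, at 93.2% to 94.1% identity to each other. Of all words of 50 bases in the coding first exon of UGT1A7, 8.07% occurred unchanged in another member, and none of its words of 100 bases did. The window below, coding positions 272 to 331 counted from the start codon (chr2:233682209-233682268 for UGT1A7), is shown because of all stretches of 60 bases it is where UGT1A7 differs most from its close relatives. Capitals in the UGT1A7 line mark bases that differ from all 3 relatives, and capitals in the other lines mark bases that differ from UGT1A7.
UGT1A7: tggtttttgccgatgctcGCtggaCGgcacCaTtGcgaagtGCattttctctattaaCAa
UGT1A8: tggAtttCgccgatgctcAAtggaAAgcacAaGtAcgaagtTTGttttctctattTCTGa
UGT1A9: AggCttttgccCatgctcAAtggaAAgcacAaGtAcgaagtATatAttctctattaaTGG
UGT1A10: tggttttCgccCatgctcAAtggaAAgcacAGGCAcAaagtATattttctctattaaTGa

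Library totals ran from 29605764 to 32089298 counts. The knockdown target came out as labelled: TRIP6, an adaptor protein of focal adhesions, had 630, 606 and 606 counts in shTRIP6 and 2200, 2694 and 2491 in shControl. The groups were far apart over the whole transcriptome. Of 15473 genes tested with edgeR's quasi-likelihood test, 60.1% were called at an adjusted p under 0.05, and the median log2 fold change of all tested genes was -0.00397. Chi-square per degree of freedom was 118 to 135 between libraries of different groups and 3.05 to 11.7 within groups. CPM is the count scaled to the library size after TMM, the usual unit of that name. As to the labelled line, 4 of 8 epithelial markers reached 1 CPM in some library. KRT8 and KRT18, keratins of simple epithelium, were abundant in every library, and EPCAM was at 0 throughout. KRT19 was at 47.5 to 53.8 CPM in shTRIP6 and 11.25 to 15.56 CPM in shControl. CDH1, CLDN3 and CLDN4 had at most 9, 6 and 30 counts in any library.

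All UGT1A rows, each of which takes in the common exons, were low in shTRIP6 and high in shControl. UGT1A7 was counted at 34, 29 and 27 reads in the shTRIP6 libraries and at 2984, 3208 and 3067 in the shControl libraries. Every shControl library lay far above every shTRIP6 library, and the 3 controls stood close together. On the CPM scale UGT1A7 was 0.954 ± 0.102 (SD, n = 3) in shTRIP6 and 100.8 ± 1.95 (SD, n = 3) in shControl, a log2 fold change of -6.72 ± 0.10 (SE).

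The other 8 members, with substrates from bilirubin (UGT1A1) to small planar phenols (UGT1A6), had a single row of counts between them in shTRIP6: each was at 17, 19 and 16. In shControl UGT1A1 stood at 1423, 1669 and 1529, and UGT1A6 at 1423, 1672 and 1528. UGT1A8 and UGT1A10, both known from the intestine, read 1432, 1668 and 1532, and 1432, 1667 and 1533. These rows differed from each other by a few reads, while each was about as far below UGT1A7 as the others. UGT1A9 stood at 1432, 1666 and 1532, and UGT1A3, which acts on bile acids, at 1416, 1661 and 1521. UGT1A4, which acts on amines, and UGT1A5 both read 1416, 1659 and 1521. The last 2 could not be told apart in any library, so the 9 symbols gave 8 distinct rows.

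**Figure D1:**
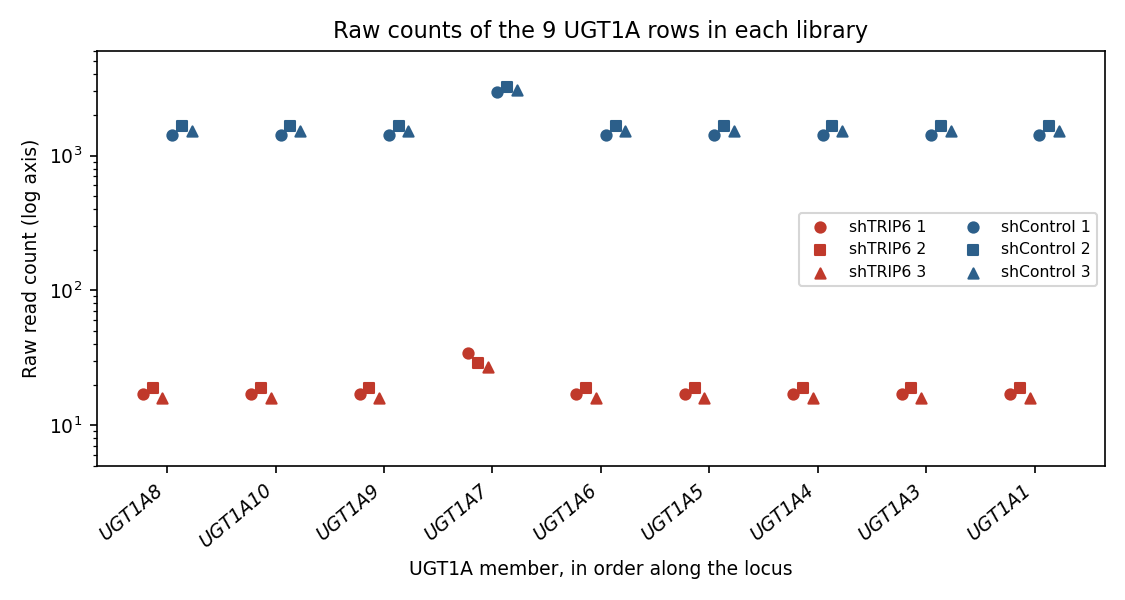
Raw read counts (vertical log axis) of the 9 UGT1A rows, in their order along the locus, with 1 point per library, shTRIP6 in red and shControl in blue. All shTRIP6 points lie between 16 and 34 and all shControl points between 1416 and 3208, and UGT1A7 stands above the other 8 rows in both groups.

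The log2 fold changes of the 8 rows lay between -6.50 and -6.49, a fitted fall of 90.0-fold to 90.7-fold, and that of UGT1A7 was 105-fold. All 9 members passed the filter on low counts, all 9 had non-overlapping groups and all 9 were called lower. Over all tested genes 31.2% were called lower and 33.5% had shTRIP6 libraries wholly below the shControl libraries. Since the members were picked on this contrast, and since their rows nearly coincide, the 9 calls are neither independent nor a test. A fall at least as large as that of the reads common to the family was fitted for 1.27% of tested genes. In bulk RNA, fewer cells that express a gene and less of its RNA per cell cannot be told apart.

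Differences between the rows were then used to separate the first exons. The lowest of the 9 counts in a library is the most reads that all members can have in common, and is called here the shared count. What a member had above it is called its first-exon excess, though a read in any other exon that is not common to all would count in it too. The shared count was 17, 19 and 16 in shTRIP6 and 1416, 1659 and 1521 in shControl, or 0.552 ± 0.049 CPM and 49.99 ± 2.92 CPM (SD, n = 3 each). In shControl the 8 rows other than UGT1A7 were spread over 16, 13 and 12 reads, which is 0.784% to 1.13% of the shared count. The sources used here do not give how a read that fits several symbols was counted.

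UGT1A7 was the exception. Its excess was 17, 10 and 11 reads in shTRIP6 and 1568, 1549 and 1546 in shControl. The shControl values were close to each other and about as large as the shared count, and each lay above all shTRIP6 values. In CPM the excess was 0.402 ± 0.115 (SD, n = 3) in shTRIP6 and 50.8 ± 1.64 (SD, n = 3) in shControl. With the 9 rows replaced by 1 shared row and 9 excess rows, the fitted log2 fold change was -6.96 ± 0.14 (SE) for the UGT1A7 excess and -6.49 ± 0.13 (SE) for the shared count.

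The excess of the other first exons was small. UGT1A8 had 16, 9 and 11 reads of it in the shControl libraries, UGT1A10 16, 8 and 12, and UGT1A9 16, 7 and 11. These 3 carry the first exons most like that of UGT1A7, and their excess rose and fell nearly together over the 3 libraries. UGT1A6, far from them in sequence, had 7, 13 and 7, and UGT1A1 had 7, 10 and 8. UGT1A3 had 2 reads in 1 control library, and UGT1A4 and UGT1A5 had 0 throughout. No member other than UGT1A7 had any excess in shTRIP6. Against a floor of 3 counts over the 3 shTRIP6 libraries, the excess was at least 12.3-fold lower there for UGT1A8 and UGT1A10, at least 11.6-fold for UGT1A9, at least 9.24-fold for UGT1A6 and at least 8.55-fold for UGT1A1. Floors and intervals take in counting error alone, because PCR copies of a fragment carry no molecular identifier here.

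Summed over the shControl libraries, UGT1A7 held 4663 of 4823 excess reads, or 96.7%, with 96.2% to 96.9% in single libraries. In shTRIP6 it held all 38. A read that fits several symbols may enter the sum over members more than once, so the 4823 need not be distinct reads. Per kb of first exon, the UGT1A7 excess in shControl was 59.4 ± 1.92 CPM per kb (SD, n = 3). The next, UGT1A8 at 0.429 ± 0.140 CPM per kb, reached 0.722% of that level. UGT1A8, UGT1A10, UGT1A9, UGT1A1 and UGT1A6 followed in that order down to 0.293 ± 0.108 CPM per kb, and neighbours in that order did not differ beyond their spread. UGT1A3 was lower, at 0.0241 ± 0.0418 CPM per kb.

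**Figure D2:**
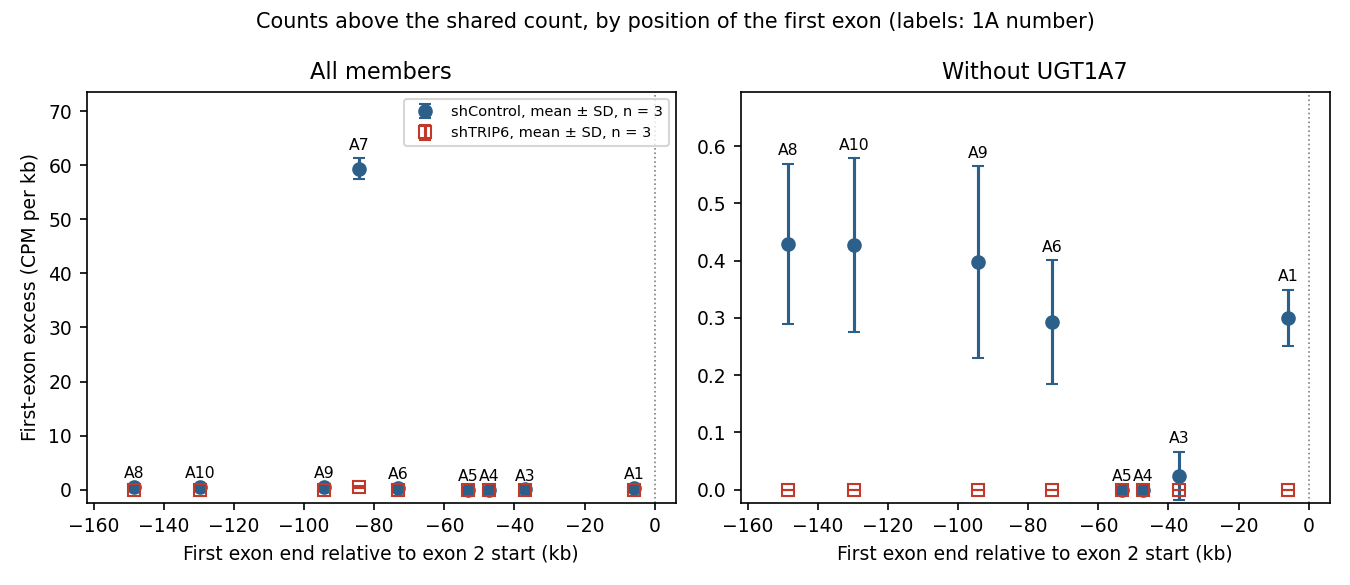
First-exon excess in CPM per kb of first exon (vertical axis) against the distance in kb from the end of each first exon to the start of exon 2 (horizontal axis), mean ± SD of 3 libraries, shControl as blue circles and shTRIP6 as red squares, with all members on the left and without UGT1A7 on the right. UGT1A7, 84.2 kb before exon 2, stands at 59.4 in shControl, while first exons on either side of it stay at 0.429 or below.

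The share of the UGT1A7 count that lay above the shared count was compared between libraries, as a measure of first-exon against common-exon reads. It was 50.0% (exact 95% binomial interval 32.4% to 67.6%), 34.5% (17.9% to 54.3%) and 40.7% (22.4% to 61.2%) in the shTRIP6 libraries. In the shControl libraries it was 52.6% (50.7% to 54.4%), 48.3% (46.5% to 50.0%) and 50.4% (48.6% to 52.2%). The groups overlapped. Summed, 38 of 90 reads gave 42.2% (31.9% to 53.1%) in shTRIP6 and 4663 of 9259 gave 50.4% (49.3% to 51.4%) in shControl, so no difference in the share was detectable at the depth of the shTRIP6 counts.

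**Figure D3:**
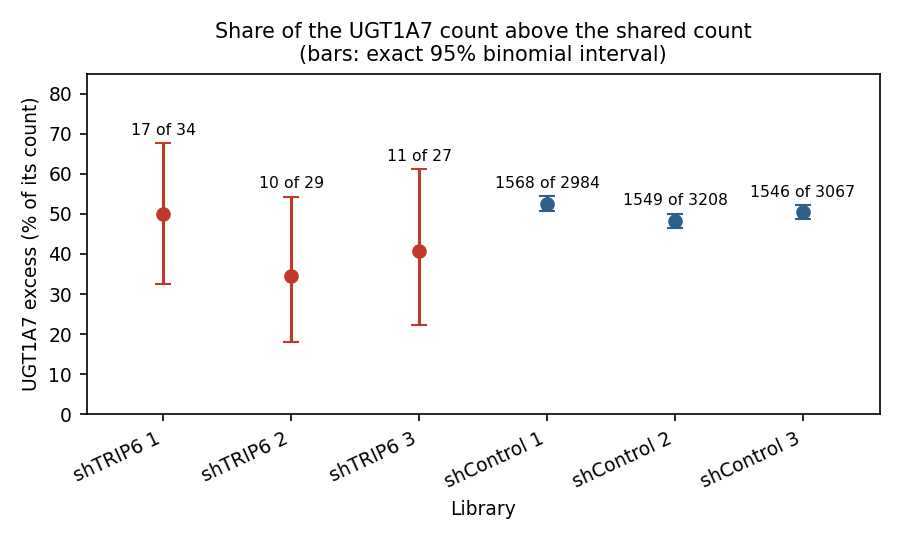
UGT1A7 first-exon excess as a percent of the UGT1A7 count (vertical axis) in each of the 6 libraries, with exact 95% binomial intervals and the read counts above each bar. The shControl libraries lie between 48.3% and 52.6% with narrow intervals, and the wide intervals of the shTRIP6 libraries, 34.5% to 50.0%, overlap them.

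Relative to length, first-exon and common-exon reads were not equal in shControl. The UGT1A7 first exon had 59.4 ± 1.92 CPM per kb and the common exons had 33.8 ± 1.98 CPM per kb (SD, n = 3 each), a ratio of 1.61 to 1.91 over the 3 libraries. In shTRIP6 the ratio was 0.910 to 1.73 on 10 to 19 reads a library. The order depends on the exon model. With the first exon started at the RefSeq gene start (892 bases) the ratio in shControl was 1.55 to 1.84, whereas it was 0.513 to 0.609 with the further exons of another annotated UGT1A7 transcript added (2689 bases), which ends before the common exons and in part overlaps UGT1A6. The sources used here do not give the annotation behind the deposited counts, so which length applies cannot be told apart.

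The promoters were read from RefSeq (GRCh38.p14), which matched 8 of the 9 members and held 9 start sites, UGT1A6 having 2. The 250 bases before the start of UGT1A7 and of UGT1A9 are shown because these neighbouring, closely related promoters belong to members with unlike first-exon excess. Capitals mark a match to the CDX motif, TTTATG on either strand, the only motif of those searched that either of the 2 holds.
UGT1A7, chr2:233681651-233681900, plus strand: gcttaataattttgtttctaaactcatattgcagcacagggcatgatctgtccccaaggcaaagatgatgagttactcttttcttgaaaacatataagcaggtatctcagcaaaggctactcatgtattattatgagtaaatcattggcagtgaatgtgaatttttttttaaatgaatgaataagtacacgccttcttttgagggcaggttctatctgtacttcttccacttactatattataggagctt
UGT1A9, chr2:233671648-233671897, plus strand: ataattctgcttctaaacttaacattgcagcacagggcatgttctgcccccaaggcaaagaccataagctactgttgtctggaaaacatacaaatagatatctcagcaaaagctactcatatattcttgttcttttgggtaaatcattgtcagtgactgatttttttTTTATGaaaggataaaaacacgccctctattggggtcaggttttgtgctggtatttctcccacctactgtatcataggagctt

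The promoters of UGT1A7 and UGT1A9 were 79.1% identical over their aligned length, and that of UGT1A8 was 77.8% identical to UGT1A7. UGT1A8 and UGT1A9 each held 1 CDX match and UGT1A7 none. CDX factors are regulators of intestinal genes, and this motif was found in 9.64% of 35116 promoters of the same length. The xenobiotic response motif of the aryl hydrocarbon receptor, TNGCGTG, occurred in the upstream UGT1A6 promoter only (4.52% of all promoters). The consensus HNF1 motif occurred in UGT1A3 (2 of 35116 promoters), the antioxidant response motif TGACNNNGC in the second UGT1A6 promoter and in UGT1A5 (10.9%), and TATAAA in UGT1A1 (10.7%). All motifs were searched on both strands, and a match or its absence in these windows is a description of the letters only.

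Tested genes on either side of the locus did not share the large fall. USP40, a deubiquitinase gene 50.9 kb before the first exons, had 1149, 1125 and 1135 counts in shTRIP6 and 931, 951 and 885 in shControl, and rose (log2 fold change 0.26 ± 0.07 SE, edgeR adjusted p = 0.0035). HJURP, the chaperone of centromeric histone, 60.1 kb after exon 5, rose by 0.49 ± 0.06 (adjusted p = 1.8e-06), and its exons overlap those of MROH2A. DGKD, a diacylglycerol kinase gene, fell by 0.27 on the log2 scale, while SH3BP4 and AGAP1 rose by 0.20 and 0.32. ATG16L1 (-0.11), TRPM8 (0.21) and NGEF (-0.10) were not called, and TRPM8 and NGEF had at most 23 counts in any library. Of these 8 tested neighbours 4 rose, 1 fell and 3 did not pass, with a median of 0.21. For comparison, 29.0% of all tested genes were called higher and 31.2% lower. DNAJB3, inside the locus, and MROH2A, 2.4 kb behind it, had at most 8 counts in any library and were not tested.

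**Figure D4:**
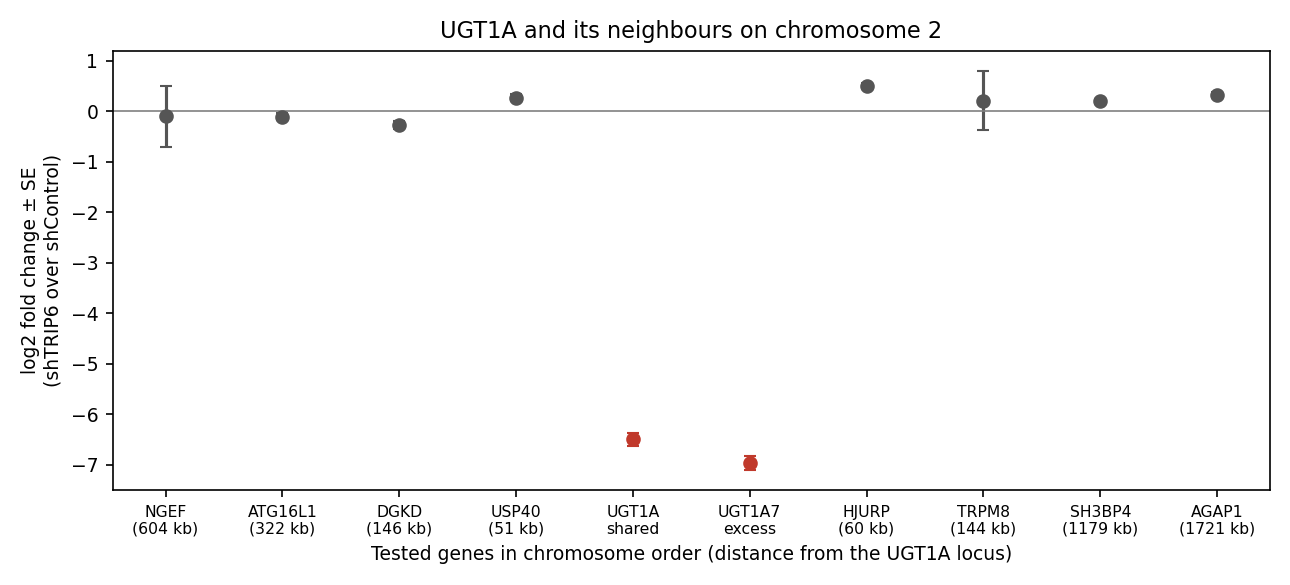
Log2 fold change ± SE (vertical axis, shTRIP6 over shControl) of 8 tested neighbours in chromosome order, with their distance from the UGT1A locus in kb, and of the shared UGT1A count and the UGT1A7 excess in red. The 8 neighbours lie between -0.27 and 0.49, and the UGT1A values at -6.49 and -6.96.

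UGT and related genes outside the family had few counts or changed far less than the UGT1A rows. Of 16 further UGT and related genes, 12 were not tested, and none of those, the UGT2A, UGT2B and UGT3A genes, exceeded 7 counts in a library. UGT8, which makes galactosylceramide, was not called (-0.54 ± 0.25 SE, adjusted p = 0.069). UGCG, glucosylceramide synthase, rose by 0.48 and UGGT1, a folding sensor of the endoplasmic reticulum, fell by 0.15. The gene lists in this and the next paragraphs were chosen with earlier results of these data known, and are set beside 29.0% higher and 31.2% lower over all tested genes.

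Among genes that make, carry or clear UDP-sugars, 7 of 15 rose and 3 fell (median 0.10). UGDH, the enzyme that oxidizes UDP-glucose to the UDP-glucuronic acid used by all members, had 1068, 1029 and 987 counts in shTRIP6 and 1899, 2094 and 2175 in shControl. Its level in shTRIP6 was 48.7% of that in shControl (log2 fold change -1.04 ± 0.06 SE, adjusted p = 7.3e-11), and an antisense gene overlaps its exons. PGM1 (-0.50) and UXS1 (-0.35), which converts UDP-glucuronic acid to UDP-xylose, fell, and PGM2 (0.77), ENTPD6 (0.63) and SLC35B1 (0.31) rose.

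Genes for the removal of glucuronides moved in both directions, 4 of 10 higher and 5 lower (median -0.29). ABCC3, an exporter of glucuronides, had 109, 109 and 131 counts in shTRIP6 and 2730, 2703 and 2741 in shControl, a log2 fold change of -4.59 ± 0.09 (SE, adjusted p = 1.1e-18). ABCG2, another exporter of conjugates, fell by 4.33 on the log2 scale. SLCO1B3, an uptake carrier of conjugated bilirubin and bile acids, had 2, 0 and 1 counts in shTRIP6 and 94, 144 and 149 in shControl, and fell by 6.87. Its summed counts were 132-fold lower (exact 95% counting interval 45.0 to 645), and its fitted log2 fold change was -7.70 without shTRIP6 replicate 1 and -6.34 without shTRIP6 replicate 2. ABCC4 (0.37), another exporter, and GUSB (0.34), the lysosomal beta-glucuronidase, rose. SLCO1B1 was called higher at 1.36 ± 0.52 (SE, adjusted p = 0.030) on 43, 51 and 43 counts in shTRIP6 and 4, 39 and 9 in shControl. That call was lost in 5 of 6 fits with 1 library left out, and the value was 2.74 without shControl replicate 2 and 0.91 without shControl replicate 1.

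Of the transcription factors known to act on UGT1A promoters, 28 of 38 were tested, 8 rose and 14 fell (median -0.35). PPARG, a nuclear receptor, had 59, 36 and 33 counts in shTRIP6 and 1136, 1084 and 1192 in shControl (log2 fold change -4.77 ± 0.14 SE, adjusted p = 1.3e-15). NR1H3 (-1.64), a sterol receptor, and FOXA1 (-1.45), a forkhead factor, also fell, and PPARD (0.97), MAFF (0.70) and NR1I3 (0.69) rose. Exons of NR1H3, FOXA1 and NR1I3 overlap those of ACP2, TTC6 and TOMM40L, in that order. A few further factors were singled out after their values were seen. AHR fell by 0.56 and its partner ARNT by 0.53, whereas NFE2L2, which encodes NRF2, was not called (0.04 ± 0.05 SE, adjusted p = 0.50). The intestinal factor CDX2 had at most 4 counts and CDX1 had 0 in all libraries, and HNF4A had 5, 3 and 15 counts in shControl and 0 in shTRIP6.

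Of 10 tested genes known to respond to the aryl hydrocarbon receptor, 7 fell and 1 rose (median -1.11). NQO1, a quinone reductase, had 58, 52 and 38 counts in shTRIP6 and 5162, 5953 and 5839 in shControl. Its log2 fold change of -6.87 ± 0.10 (SE, adjusted p = 1.4e-20) was of the size of those of the UGT1A rows. ALDH3A1 (-4.96), an aldehyde dehydrogenase, and the oxidases of polycyclic hydrocarbons CYP1A1 (-3.12) and CYP1B1 (-2.84) fell, and AHRR (0.37), the receptor's repressor, rose. AHRR and CYP1B1 have exons that overlap other genes.

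NRF2-responsive genes, a list that holds NQO1 and ABCC3 too, were split, with 6 of 15 higher and 7 lower (median -0.16). FTH1, ferritin heavy chain, fell by 2.02 and FTL, its light chain, rose by 0.51. SRXN1, sulfiredoxin, rose by 1.09 and TXNRD1, thioredoxin reductase, by 0.35. Of 5 tested genes that respond to the receptors PXR and CAR, 3 rose (median 0.26) and 0 fell by edgeR, DESeq2 or limma-voom, with 0 falls at an unadjusted edgeR p under 0.05. They were GADD45B (0.56), ABCC2 (0.26), an exporter of bilirubin glucuronides, and ABCB1 (0.56 ± 0.22 SE, adjusted p = 0.035), whose call was lost with DESeq2 and in 4 of 6 fits with 1 library left out.

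The other routes of conjugation and the supply of the classical UGT1A1 substrate were also counted. In sulfation, which shares phenolic substrates with UGT1A members, 6 of 12 genes fell and 2 rose (median -0.21). SULT1A1, a phenol sulfotransferase, fell by 4.18, STS, steroid sulfatase, by 3.30 and SULT1A4 by 1.50, the last with counts identical to those of SULT1A3. SLC35B3 (0.33) and SLC35B2 (0.20), carriers of the sulfate donor, rose, the call of SLC35B3 being lost without shTRIP6 replicate 2 (adjusted p = 0.060). Of the genes of oxidation and hydrolysis, 7 of 15 fell and 4 rose (median -0.16), with CYP2S1 at -4.86 and CYP2R1 at 1.07. Of genes of haem synthesis and breakdown, which yields bilirubin, 4 of 13 fell and 5 rose (median 0.06), within the range from -0.41 for POR to 0.43 for CPOX.

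**Figure D5:**
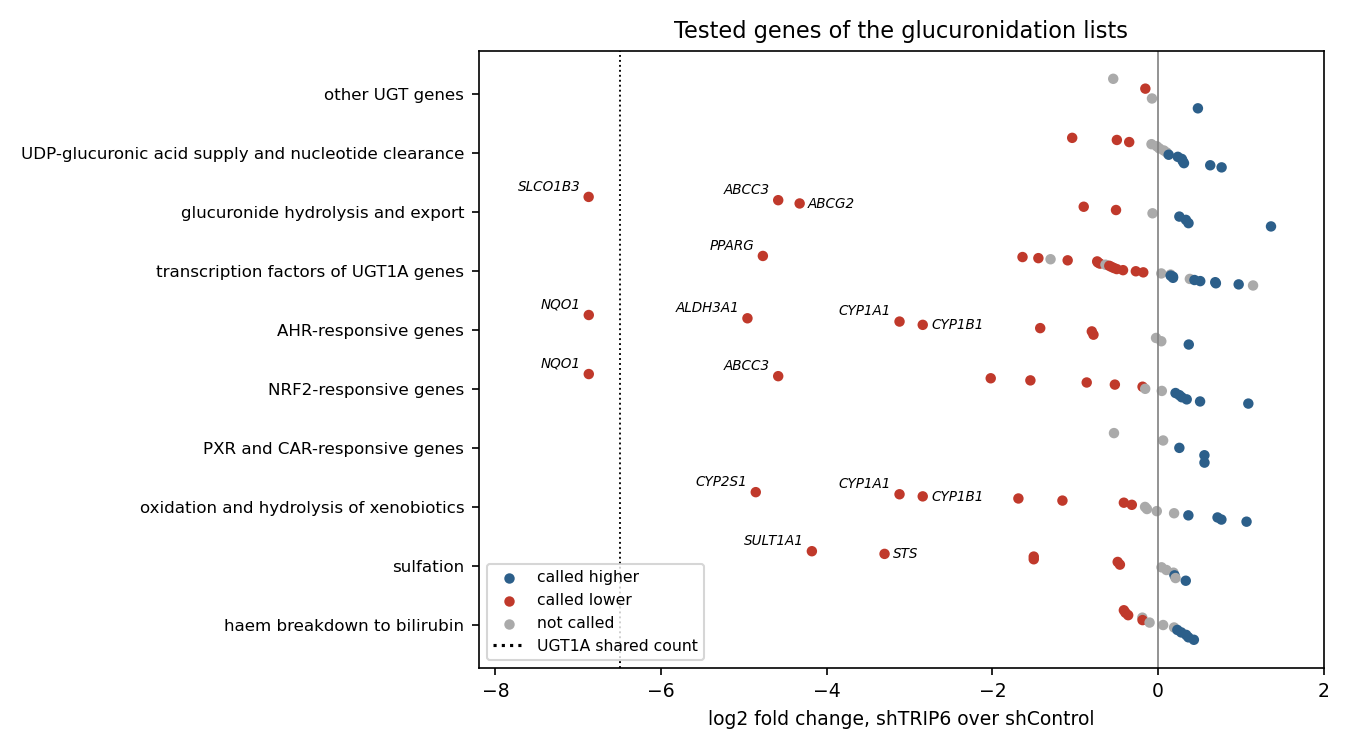
Log2 fold change (horizontal axis, shTRIP6 over shControl) of the tested genes of 10 lists around glucuronidation, with calls at an edgeR adjusted p under 0.05 in blue (higher) and red (lower), others in grey, and the shared UGT1A count as a dotted line. NQO1 and SLCO1B3, both at -6.87, lie beyond the dotted line at -6.49 (SLCO1B3 at -6.34, short of it, without shTRIP6 replicate 2), and the other genes spread from -4.96 (ALDH3A1) to 1.36 (SLCO1B1).

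Markers of other cell types known for UGT1A expression were low in both groups. ALB, TTR and AHSG of hepatocytes were at 0 in all libraries, and the summed level of the 8 hepatocyte markers was 20.4 to 21.3 CPM in shTRIP6 and 16.7 to 20.3 CPM in shControl. Of 12 enterocyte markers, 8 were at 0, VIL1, CDX1 and KRT20 among them, and their sum was 6.40 to 7.67 CPM in shTRIP6 and 0.470 to 1.19 CPM in shControl. Of 5 markers of the kidney's proximal tubule 3 were at 0 (LRP2, SLC22A6 and SLC22A8), with sums of 2.57 to 3.36 and 1.67 to 2.36 CPM. Fibroblast markers, of which none was at 0 in all libraries, summed to 159.7 to 180.0 CPM in shTRIP6 and 114.1 to 127.4 CPM in shControl, most of it THY1. THY1 and PDGFRB were higher in every shTRIP6 library than in any shControl library, while FAP (0.256 to 0.408 against 13.6 to 16.2 CPM), DCN (0 against 0.995 to 1.11 CPM), COL3A1, COL1A1 and LUM were lower. Leukocyte markers summed to 236.2 to 245.3 and 186.8 to 235.5 CPM. Endothelial markers summed to 0.224 to 0.282 CPM in shTRIP6 and 1.78 to 2.29 CPM in shControl. Their part in the UGT1A values was not tested.

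The genes most like the shared UGT1A count were sought over the 6 libraries by the root-mean-square difference of log2(CPM + 0.1), each gene centred on its own mean. The nearest 5 outside the family were BDKRB1, a kinin receptor (0.101), PSAT1, an enzyme of serine synthesis (0.108), GABRE, a GABA receptor subunit (0.113), ZNF320, a zinc finger gene (0.115), and MTAP, an enzyme of methionine salvage (0.155). PSAT1 had 28, 25 and 26 counts in shTRIP6 and 2069, 2511 and 2449 in shControl, and MTAP had 15, 20 and 17 and 1310, 1301 and 1269. BDKRB1 had 2, 2 and 2 counts in shTRIP6 and 314, 374 and 389 in shControl (log2 fold change -7.44). ZNF320 had 4, 4 and 4 and 507, 518 and 454 (-6.94). UGT1A7 itself was at 0.192, farther from the shared count than these 5. Its fitted log2 fold change, -6.72, was nevertheless nearer to the -6.49 of the shared count than those of BDKRB1 and ZNF320. The added 0.1 CPM shrinks group differences most at the lowest shTRIP6 levels, so the order depends on it. With 6 libraries in 2 groups, likeness by this measure rests mainly on the size of the difference between the groups.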

How the data were processed

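Per the submitters' processing notes, TopHat2, edgeR, limma and genome build hg38 were used, but the sources used here give neither roles nor versions. The counting tool, annotation and strand setting are not given either, so reads of a gene and its antisense partner cannot be told apart. Besides the overlaps given above, exons of FTH1, GABRE, NGEF, PGM1, POR, SLC35B2, SULT1A4, TRIP6 and ZNF320 overlap those of other genes. The authors' deposited values were raw read counts per symbol and library. Of 20757 symbols with a count, 2551 had 6 counts identical to those of another symbol. The members and gene lists were chosen with earlier results of these data known.

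Counts were fitted with edgeR 4.0.16 in R 4.3.3 (TMM scaling, filterByExpr, quasi-likelihood test, Benjamini-Hochberg adjustment over 15473 genes, threshold 0.05) on 3 shTRIP6 and 3 shControl libraries. The SE is the log2 fold change over the root of F. The procedure was tested on simulated data in which far fewer genes were changed than were called here. That test therefore does not cover a contrast of this size. Exons came from GENCODE 29 and promoters from RefSeq. Identities are matching bases over aligned columns, with end gaps left out for promoters but counted for first exons. Named were the 9 members, TRIP6, up to 3 called rises and 3 called falls at 1 CPM or more per list, the tested neighbours and the 5 genes nearest in pattern. A few genes of the lists are not reported here. Alternatives were scaling by RLE, by upper quartile or by library size alone, leaving out the filter on low counts, a filter at 1 CPM in 3 libraries, DESeq2 1.42.0, limma-voom (limma 3.58.1), a replicate block, each library left out, other definitions of the shared count and, added after the data were seen, other exon lengths for UGT1A7. A single count was worth 0.0314 to 0.0336 CPM after TMM scaling.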

Additional observations from a re-analysis of the deposited data

How the results depend on the processing

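The log2 fold changes of the 9 members moved by less than the replicate spread under every alternative run. They ranged from -6.57 to -6.43 for the 8 and from -6.80 to -6.64 for UGT1A7. The shared count (-6.56 to -6.43) and the UGT1A7 excess (-7.21 to -6.82) were compared under fewer alternatives. These were RLE scaling, library size alone, the replicate block, each library left out and other definitions of the shared count. Both also moved by less than the replicate spread, and all extremes came from leaving out 1 library. The 4487 higher and 4820 lower calls ranged over 4018 to 5073 and 4368 to 5049. The UGT1A7 density ratio, with a median of 1.76, fell to 0.559 with the exons of the other UGT1A7 transcript, where the added length turns the order. Of 838 values of 60 named genes outside the family, 821 kept direction and side of the threshold. The 12 weaker ones were those of ABCB1, SLCO1B1 and SLC35B3. Signs turned for 2 genes that were not called, NGEF (0.29 without shTRIP6 replicate 1, 0.08 without shTRIP6 replicate 2, 0.33 without shControl replicate 2, from a range of -0.91 to 0.33) and TRPM8 (-0.03 without shTRIP6 replicate 1, -0.28 without shControl replicate 1, from a range of -0.28 to 0.94).

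The labels do not say whether same-numbered libraries were paired. Their deviations correlated at -0.023, -0.045 and -0.026. These values cannot decide it, because the deviations were centred within each group of 3. With the replicate number as a block, 4377 genes were called higher and 4702 lower, and among the named genes ABCB1 lost its call (adjusted p = 0.058). The 16 to 34 member counts in shTRIP6 limit any statement on which first exon was used there.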

Other observations

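The PCDHG cluster on another chromosome has the same layout of variable first exons joined to common exons, and its rows were also close to each other. The highest of 22 PCDHG counts, PCDHGB5 in all 6 libraries, was 1.42 to 2.16 times the lowest, against 1.53 to 2.11 for UGT1A7 over the lowest UGT1A count. Median PCDHG counts were 274, 197 and 277.5 in shTRIP6 and 380, 235 and 228.5 in shControl. The groups overlapped, and 0 of the 22 tested PCDHG genes were called by edgeR, DESeq2 or limma-voom, with 0 at an unadjusted edgeR p under 0.05. For comparison, edgeR called 60.1% of all tested genes. Since the 22 rows lie close to each other, they are not independent results. The 15 PCDHA rows had at most 2 counts in any library.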
